A study of Mus musculus with 6 samples.

Results

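The genes described here are 56 genes of the extracellular matrix and of pancreatic stellate cells, measured in the pancreas of mice with and without Cftr. They were taken from a list of collagens, matrix glycoproteins, matrix enzymes and stellate cell genes, and every probe set that the platform annotation gives to exactly 1 of them was kept. That gave 84 of the 12488 probe sets, for 53 of the 56 genes; Fbn1, Thbs1 and Igfbp5 are not analysed here. Of the 53 genes, 42 were bright enough to be tested (at least 3 of 6 arrays above an intensity of 140.2), out of 5804 named genes tested.

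Total RNA of the pancreas was hybridised to 6 one-colour oligonucleotide arrays, 1 mouse per array. The 3 control mice were CFTR+/+ and the 3 CF mice CFTR-/-. All 6 were males aged 56 to 58 days and carried gastrin+/-, so the controls had a reduced gastrin dose too. Their background was 95% black6 and 5% 129Sv, and all ate Peptamen, a peptide-based liquid diet against gut obstruction, from day 10 of life. Which part of Cftr is disrupted, and whether the mice were littermates, was not given in the sources used here. Control replicate 1 is labelled as RNA of the entire pancreas and the other arrays as RNA of the pancreas.

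The matrix of the exocrine pancreas is thin in health: basement membranes wrap acini, ducts and vessels, and loose fibrillar collagen fills the septa between lobules. Pancreatic stellate cells, which lie beside the acini and store vitamin A when quiescent, make most of the fibrillar collagen when they turn into myofibroblasts after injury. In human cystic fibrosis the gland is replaced by fibrous and fatty tissue, whereas mice without Cftr have a milder pancreatic disease. Cftr encodes the chloride and bicarbonate channel of duct cells.

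On average, most of the matrix genes tested were lower in the CF pancreas, and 0 of 42 passed the threshold (limma over all probe sets, Benjamini-Hochberg adjusted p under 0.05, called by 5 of 7739 probe sets, 0.0646%). The differences with the smallest p were those of Igfbp4, which was 2.03-fold lower, the basement membrane collagen Col15a1, 2.44-fold lower, and Col6a2, 1.65-fold lower. Type IV collagen, the listed laminin chains (Lama2, Lamb1 and Lamc1) and the metalloproteinase Mmp14 differed by at most 0.26 on the log2 scale in either direction, and Igfbp3, Igfbp7 and Mgp were higher on average with a wide spread. The CF minus control difference was negative for 33 of the 42 genes, with a median of -0.31 on the log2 scale, and for 50.4% of all 5804 genes, whose median was -0.00.

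Because a gene enters the 42 only if enough arrays are bright, the count is a description of the genes that could be tested. With no filter, 41 of 53 genes were lower (median -0.27), beside 4389 of all 8251 genes, and 0 passed. In that fit 7 of the 53 had an unadjusted limma p under 0.05, 6 of them lower. At that level 235 of all 8251 genes were lower. With the filter, limma gave 7 of the 42 genes an unadjusted p under 0.05, all lower in CF. The background was 3.15% of all genes lower and 4.34% higher at that level. In 9 of the 42 genes tested, all 3 CF values lay below all 3 control values, against 5.88% of all genes. In 0 of these 42 did all CF values lie above, against 7.34%.

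**Figure D1:**
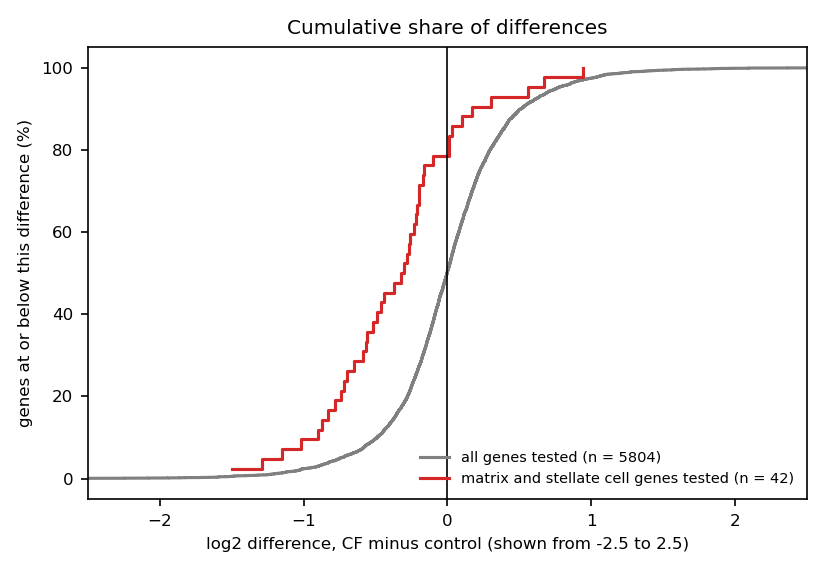
Cumulative share of genes (percent, vertical axis) at or below each log2 difference, CF minus control (horizontal axis), for the 42 matrix and stellate cell genes tested and for all 5804 genes tested, 1 probe set per gene. The matrix curve lies to the left: its median is -0.31, and that of all genes is -0.00.

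The promoters of the 4 genes with the smallest p, from the RefSeq table of build GRCm38.p6, are shown first, since these genes lead the list. Each sequence is the 250 bases before a start site, on the strand of the gene. Capitals mark matches, on either strand, to any of 5 short motifs. TATAAA is the core of the TATA box that places the start of transcription. CCAAT is the box bound by NF-Y. GGGCGG is the GC box bound by Sp1. TGACTCA is the site of AP-1, the Fos and Jun dimer. CAGAC is a short motif bound by SMAD proteins, the messengers of TGF-beta.
Igfbp4, chr11:99040994-99041243, plus strand: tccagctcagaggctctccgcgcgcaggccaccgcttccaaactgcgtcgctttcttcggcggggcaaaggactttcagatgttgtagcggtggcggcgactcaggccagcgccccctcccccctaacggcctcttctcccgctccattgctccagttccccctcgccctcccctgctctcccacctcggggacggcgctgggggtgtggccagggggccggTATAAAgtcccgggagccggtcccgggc
Col15a1, chr4:47207762-47208011, plus strand: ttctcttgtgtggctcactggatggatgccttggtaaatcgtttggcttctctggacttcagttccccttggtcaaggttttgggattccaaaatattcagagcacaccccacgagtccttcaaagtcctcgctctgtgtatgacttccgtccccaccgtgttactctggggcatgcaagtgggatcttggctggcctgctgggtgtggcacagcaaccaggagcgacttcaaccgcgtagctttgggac
Col6a2, chr10:76623631-76623880, minus strand: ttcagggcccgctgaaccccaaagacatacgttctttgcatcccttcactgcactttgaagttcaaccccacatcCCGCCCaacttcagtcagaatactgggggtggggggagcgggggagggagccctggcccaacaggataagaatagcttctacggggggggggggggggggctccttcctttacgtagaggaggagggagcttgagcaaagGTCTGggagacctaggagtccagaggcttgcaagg
Col6a3, chr1:90843972-90844221, minus strand: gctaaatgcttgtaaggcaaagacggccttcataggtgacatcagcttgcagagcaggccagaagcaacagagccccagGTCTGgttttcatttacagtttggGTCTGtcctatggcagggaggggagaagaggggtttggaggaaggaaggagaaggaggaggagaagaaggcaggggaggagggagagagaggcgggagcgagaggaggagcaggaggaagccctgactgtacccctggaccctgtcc

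The Igfbp4 window holds a TATAAA from 28 to 23 bases before the start, and the Col15a1 window holds none of the 5 motifs. The Col6a2 window shown, 1 of 2 in the table, holds a GC box and a CAGAC, and the other holds 3 GC boxes, a pair of which overlap. The Col6a3 window holds CAGAC at 2 places. Over the 45 windows of 39 listed genes in the table, GGGCGG was found in 57.8% of windows against 32.7% of all 32851 windows of the same length. The listed genes' windows were also richer in G and C, with a median of 58.8% against 52.4%. CAGAC was found in 44.4% against 42.2%, CCAAT in 26.7% against 33.8%, TATAAA in 20% against 12.4% and TGACTCA in 4.44% against 4.46%. These are matches of letters in a short window, and no binding was measured.

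Type VI collagen, a beaded microfibril built from the chains of Col6a1, Col6a2 and Col6a3 that links cells to the interstitial matrix, was lower on average in all 3 chains. In order of replicates 1, 2 and 3, here and for every gene that follows, Col6a2 had linear intensities of 1108, 898 and 892 in controls against 605, 469 and 698 in CF (log2 difference -0.72 ± 0.22 SE, limma adjusted p = 0.47). Col6a1, its neighbour on chromosome 10, measured 2647, 1487 and 1692 in controls and 1484, 950.0 and 1396 in CF (-0.59 ± 0.26, adjusted p = 0.67). The groups did not overlap for these 2 chains, though control replicate 2 and CF replicate 1 of Col6a1 were nearly level. Without control replicate 1 the difference of Col6a1 was -0.34, the smallest when single arrays were left out.

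Col6a3, which encodes the longest of these chains, measured 943, 283 and 604 in controls and 152, 114 and 408 in CF (-1.50 ± 0.56, adjusted p = 0.62). It had the largest negative difference of all 42 genes, but its groups overlapped, since CF replicate 3 lay above control replicate 2. Leaving out single arrays moved it between -2.05 and -1.11. Of the other non-fibrillar collagens, Col14a1, which decorates fibrils, differed by -0.37 ± 0.38, and Col12a1, a relative of it, by 0.17 ± 0.59; both are named after their values were seen. Col8a1, a short-chain collagen of vessel walls, was too dim to test.

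Among fibrillar collagens, the cable-forming chains of skin, bone and scar, Col3a1 and Col5a2 were lower on average and Col1a1, Col1a2 and Col5a1 depended on the probe set or differed little. Col3a1, the reticular fibre collagen, measured 1872, 609 and 1435 in controls and 732, 471 and 737 in CF (-0.90 ± 0.40, adjusted p = 0.67). Its lowest control, replicate 2, lay inside the CF range. Leaving out control replicate 1 brought its difference to -0.56, and leaving out control replicate 2 to -1.37. The neighbouring Col5a2, a chain of the collagen that starts fibrils, measured 761, 511 and 534 in controls and 429, 450 and 335 in CF, with no overlap (-0.56 ± 0.25, adjusted p = 0.67). Its partner chain Col5a1 differed by -0.10 ± 0.17.

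The chains of type I collagen, the main product of activated stellate cells, gave no common answer. The brighter Col1a2 probe set measured 3055, 4927 and 3230 in controls and 3918, 4146 and 3185 in CF (0.03 ± 0.21, adjusted p = 0.99), while the dimmer one measured 1225, 386 and 915 in controls and 974, 570 and 391 in CF (-0.33 ± 0.46). On both the groups overlapped, and control replicate 2 was the highest array on the first and the lowest on the second. The brighter Col1a1 probe set differed by -0.17 ± 0.28.

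The dimmer Col1a1 probe set measured 1442, 516 and 981 in controls and 437, 345 and 488 in CF, with no overlap (-1.10 ± 0.36, adjusted p = 0.52). It is given after its values were seen. The part of each transcript that these probe sets read was not analysed here, so the size of a type I collagen difference is not settled by these arrays. Over all probe sets, 51 of the members' 84 were tested, of which 42 were lower in CF. Of 7 genes with several tested probe sets, only Col1a2 had probe sets of opposite sign.

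**Figure D2:**
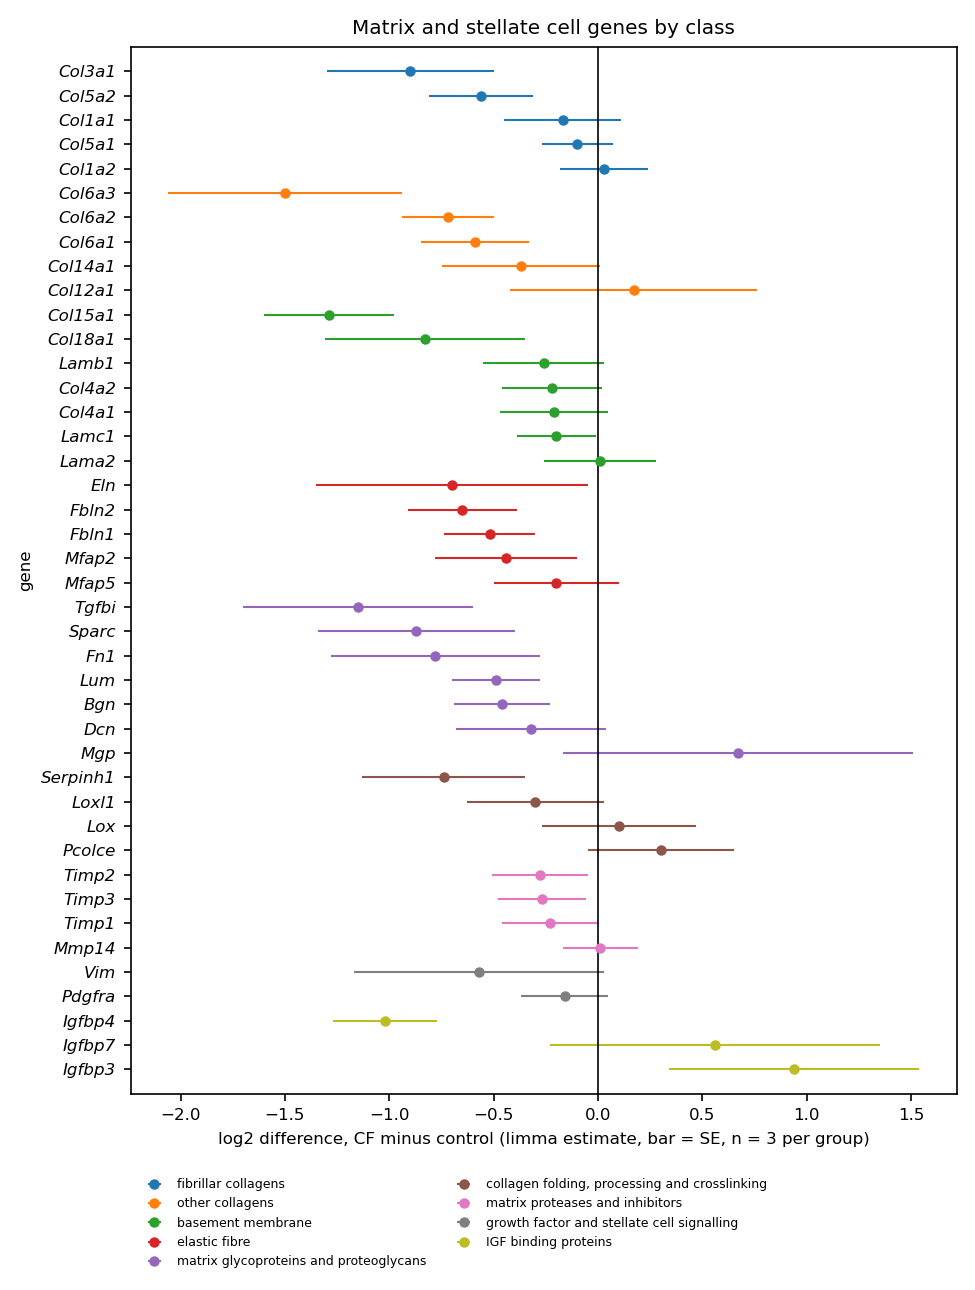
Log2 difference, CF minus control (horizontal axis), for each of the 42 tested genes (vertical axis), by class, 1 probe set per gene. Points are limma estimates and bars are SE, with 3 arrays per group. Negative values, in 33 genes, mean lower in CF; they run from -1.50 for Col6a3, and the highest is 0.94 for Igfbp3.

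The basement membrane genes differed from one another. Col15a1 and Col18a1 encode the multiplexin collagens, which sit where basement membranes meet the fibrils and whose C-terminal pieces, restin and endostatin, restrain vessel growth. Col15a1 measured 641, 483 and 568 in controls and 305, 155 and 254 in CF, so the highest CF array lay well under the lowest control (-1.29 ± 0.31, adjusted p = 0.27). Col18a1 measured 693, 180.3 and 326 in controls and 196, 237 and 158 in CF on its single testable probe set (-0.83 ± 0.48, adjusted p = 0.76). These overlapped, and control replicate 1 set much of the difference, which was -0.32 to -1.29 when single arrays were left out.

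Type IV collagen, the network former of every basement membrane, was measured by Col4a1 and Col4a2, which are neighbours on chromosome 8. Col4a2 measured 2219, 1300.4 and 1670 in controls and 1272, 1321 and 1798 in CF (-0.22 ± 0.24, adjusted p = 0.88). In the arrays of replicate 1 it was lower in CF by 0.80, and in those of replicates 2 and 3 it differed by 0.02 and 0.11. Without control replicate 1 its difference was -0.03. Col4a1 followed the same order over replicates, at -0.89, 0.09 and 0.19. The laminin chains, which carry cell attachment to the basement membrane, differed by 0.01 ± 0.27 for Lama2, -0.26 ± 0.29 for Lamb1 and -0.20 ± 0.19 for Lamc1. Col4a1 and these laminins are named after their values were seen. Nid1, which bridges laminin and type IV collagen, was too dim to test.

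All 5 elastic fibre genes tested were lower on average, with a median of -0.52. Fbln1, the fibulin of basement membranes and elastic fibres, measured 1242, 1275 and 1332 in controls and 677, 952 and 1118 in CF, with no overlap (-0.52 ± 0.22, adjusted p = 0.67). Its other probe sets differed by -0.47 ± 0.23 and -0.63 ± 0.41. The 3 control arrays of Fbln1 lay close together, and the CF arrays spread below them. Without CF replicate 1 the difference was -0.31.

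Fbln2, which binds fibronectin and laminins, measured 1185, 633 and 992 in controls and 637, 509 and 589 in CF (-0.65 ± 0.26, adjusted p = 0.65). The groups met at CF replicate 1, which was just above control replicate 2. Of the rest of this class, named after their values were seen, elastin itself (Eln) differed by -0.70 ± 0.65, and the microfibril proteins Mfap2 and Mfap5 by -0.44 ± 0.34 and -0.20 ± 0.30.

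Small leucine-rich proteoglycans, which coat collagen fibrils and set their diameter, included 2 genes without overlap. Lum, lumican, measured 864, 715 and 781 in controls and 478, 571 and 639 in CF (-0.49 ± 0.21, adjusted p = 0.67). Bgn, biglycan, measured 1575, 1475 and 1358 in controls and 1219, 1290.0 and 769 in CF, by the brighter of its probe sets (-0.46 ± 0.23, adjusted p = 0.70), and its dimmer one differed by -0.59 ± 0.22, also with no overlap. Without CF replicate 3 the brighter one differed by -0.23. Decorin was unlike them in that its groups overlapped widely. Dcn, the neighbour of Lum on chromosome 10, measured 7303, 3196 and 7785 in controls and 5627, 3100 and 5318 in CF (-0.32 ± 0.36, adjusted p = 0.89). In both groups replicate 2 was its lowest array, and the difference ran from -0.74 without control replicate 2 to -0.05 without CF replicate 2.

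Sparc, a collagen-binding protein of remodelling tissue, measured 1250.4, 366 and 675 in controls and 492, 221 and 466 in CF (-0.87 ± 0.47, adjusted p = 0.74). Tgfbi, a matrix protein induced by TGF-beta, measured 292, 157 and 247 in controls and 206, 71.3 and 70.7 in CF (-1.15 ± 0.55, adjusted p = 0.70). In both genes the groups overlapped at control replicate 2, while every CF array lay below the control array of the same replicate number. Sparc ran from -1.31 without control replicate 2 to -0.43 without control replicate 1. With the floor raised to the 40th percentile, above CF replicates 2 and 3, Tgfbi differed by -0.49. Fn1, fibronectin, and Mgp, the matrix protein that keeps soft tissue from calcifying, are named after their values were seen. Fn1 differed by -0.78 ± 0.50 and Mgp by 0.67 ± 0.84, the latter resting on control replicate 2, at 57.2 against 649 and 530.0 in the other controls. When single arrays were left out, Mgp ran from -0.45 to 1.31. Postn, Thbs2 and Tnc, matrix proteins of wounds and scars, were too dim to test. Tnc stayed at or under 146.3 on every array.

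**Figure D3:**
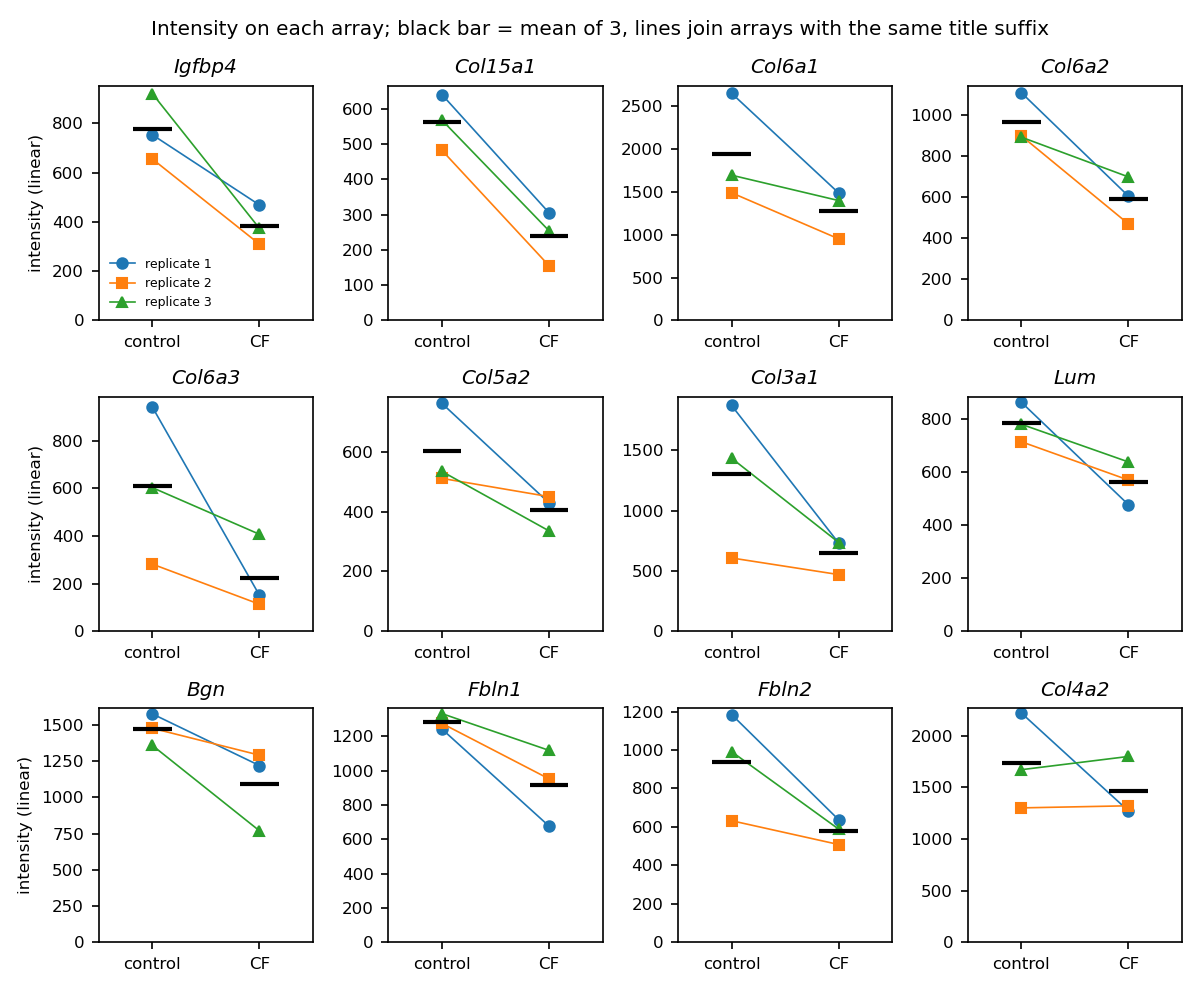
Intensity (linear, vertical axis, from 0) on each of the 6 arrays for 12 of the genes, with controls on the left and CF on the right of each panel. Symbols and lines give the replicate number from the title suffix, and black bars are means of 3. Igfbp4 and Col15a1 have all CF arrays below all controls, Col6a3 and Col3a1 have a low control replicate 2, and Col4a2 is lower in CF only in replicate 1.

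Serpinh1 encodes HSP47, the chaperone that collagen needs to fold in the endoplasmic reticulum. It measured 1165, 445 and 754 in controls and 512, 290 and 568 in CF (-0.74 ± 0.39, adjusted p = 0.73), overlapping at control replicate 2. Its difference ran from -1.10 without that array to -0.40 without control replicate 1. Pcolce, which speeds the removal of the procollagen C-propeptide, pointed the other way, with controls at 765, 1266 and 1065 against CF at 1658, 1660.0 and 698 (0.30 ± 0.35, adjusted p = 0.90). Its CF arrays enclosed the control range, and the difference ran from 0.09 to 0.72 when single arrays were left out, the latter without CF replicate 3. The crosslinking enzymes Lox and Loxl1, named after their values were seen, differed by 0.10 ± 0.37 and -0.30 ± 0.33.

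Of matrix proteases and their inhibitors, Mmp14, the membrane-bound protease that activates pro-Mmp2, differed by 0.01 ± 0.18, and Mmp2 and Mmp3 were too dim to test. The Timp genes encode inhibitors of these proteases. Timp3, which binds to the matrix, measured 556, 526 and 503 in controls and 460, 469 and 387 in CF, a small difference without overlap (-0.27 ± 0.21, adjusted p = 0.83). Timp1, which is commonly induced in injured tissue, measured 4428, 5834 and 5085 in controls and 5440.2, 3082 and 4857 in CF (-0.23 ± 0.23, adjusted p = 0.88). Its groups overlapped throughout. Timp2 differed by -0.28 ± 0.23; it and Mmp14 are named after their values were seen.

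Signalling genes of stellate cells were mostly at the edge of detection. Tgfb1, the main driver of stellate cell activation, had no array above 62.5, and its targets Ccn1 and Ccn2 and the receptor gene Pdgfrb were also too dim to test. Pdgfra, a growth factor receptor of fibroblasts, measured 815, 740.2 and 609 in controls and 688, 682 and 556 in CF (-0.16 ± 0.21, adjusted p = 0.91), with overlap. It differed by -0.28 to -0.06 when single arrays were left out. Vim, the intermediate filament of mesenchymal cells, differed by -0.57 ± 0.60, named after its values were seen. Its CF replicate 3 stood at 81.6 and its other 5 arrays between 328 and 473.

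The insulin-like growth factor binding proteins, secreted carriers that hold IGF in the matrix or keep it from its receptor, differed in direction. Igfbp4 measured 754, 656 and 922 in controls and 469, 310 and 374 in CF, which do not overlap (-1.02 ± 0.25, adjusted p = 0.26). Another of its probe sets measured 611, 156 and 392 in controls and 125, 115 and 138 in CF (-1.42 ± 0.50). That probe set passed the filter of 140.2 through its controls alone, so it could only be lower in CF. On the remaining tested probe set, with controls at 191 to 258 and CF at 179 to 253, the groups overlapped (-0.07 ± 0.32).

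Igfbp3, the main IGF carrier of plasma, measured 121, 238 and 749 in controls and 377, 557 and 731 in CF (0.94 ± 0.60, adjusted p = 0.78). The control arrays alone spanned the whole CF range. The CF minus control difference came to 0.34 when control replicate 1 was left out and to 1.66 when control replicate 3 was left out. Igfbp7, named after its values were seen, differed by 0.56 ± 0.79, and by -0.12 to 1.28 when single arrays were left out. Its replicate 2 arrays were the highest of each group, at 371 in the control and 525 in CF.

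The title suffix shared by a control and a CF array was treated as a pairing. Set against the control array of the same suffix, 30, 30 and 35 of the 42 genes were lower in CF replicates 1, 2 and 3, with medians of -0.36, -0.28 and -0.37. In 22 genes all 3 differences were negative and in 1, Igfbp7, all were positive; over all genes, 17.8% were negative in all 3. Type VI collagen, Col3a1, Col15a1, Lum, Bgn, Fbln1, Fbln2, Sparc, Tgfbi, Serpinh1 and Igfbp4 were among the 22.

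With that replicate block in the fit, 16 of the 42 genes had an unadjusted p under 0.05, 15 of them lower, where 5.91% of all genes were lower at that level, and 0 passed the adjusted threshold. Igfbp3 was the gene on the higher side. In the blocked fit Igfbp4 had an SE of 0.21 and an adjusted p of 0.20, Col15a1 0.24 and 0.19, and Col3a1 0.22 and 0.27. The unadjusted count was 15 without control replicate 2 (all lower; background 4.14%), 15 with array weights (all lower; background 4.74%), and 3 without control replicate 1 (all lower; background 2.22%). It was 4 without control replicate 3, of which 3 were lower (background 2.36%), and 4 without CF replicate 2 (all lower; background 2.24%). No setting gave any of the 42 genes an adjusted p under 0.05, the lowest being 0.16.

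**Figure D4:**
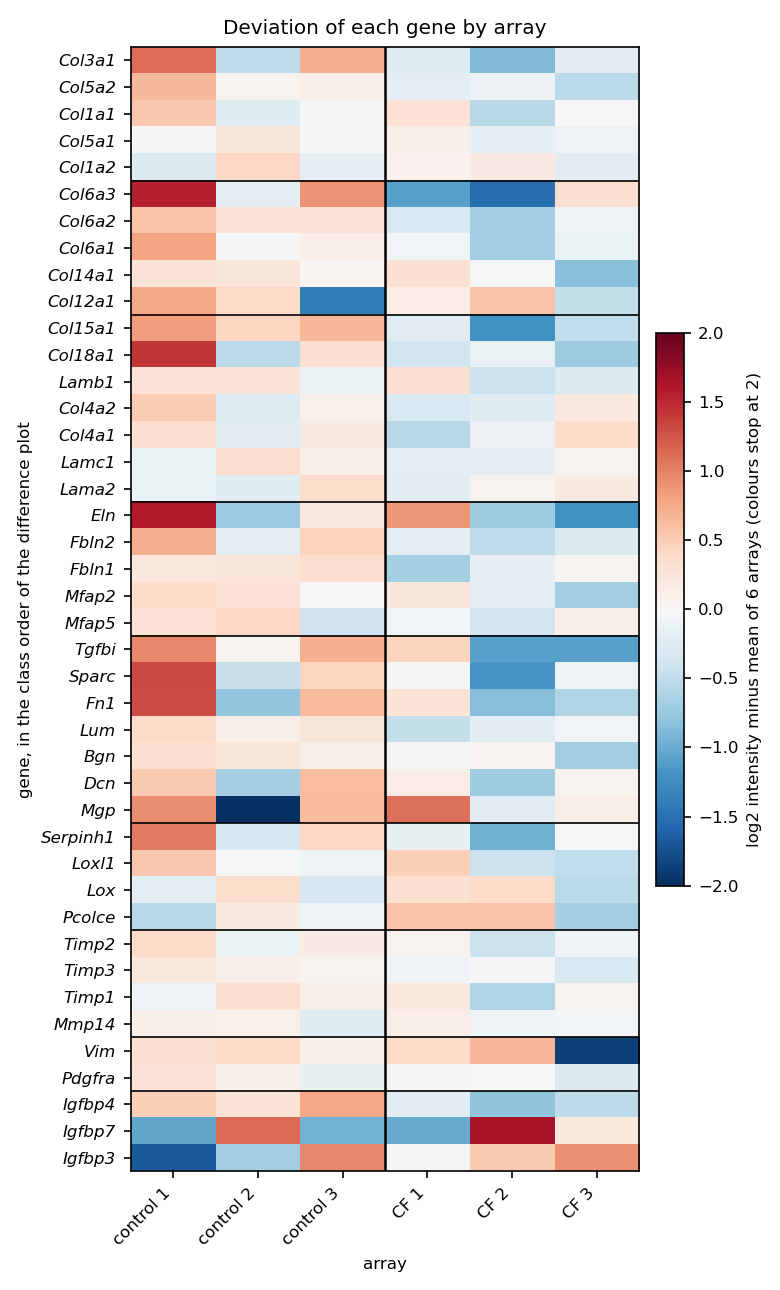
Log2 intensity of each of the 42 genes (rows, grouped by class) on each of the 6 arrays (columns), less the gene's mean over the arrays; colours stop at 2 on either side. Control replicate 1 has a list median of 0.39, the highest of the 6 arrays, and control replicate 2 is the lowest control for Col3a1, Fn1, Dcn and Mgp.

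Class medians were -0.59 for the non-fibrillar collagens of type VI, XII and XIV, -0.52 for elastic fibres, -0.49 for glycoproteins and proteoglycans, -0.37 for growth factors and stellate cell signalling, -0.25 for proteases and inhibitors, -0.22 for basement membranes, -0.17 for fibrillar collagens, -0.10 for collagen folding and crosslinking and 0.56 for IGF binding proteins. With 2 to 7 tested genes per class, these differences between classes were not tested. The 11 genes too dim to test were Ccn1, Ccn2, Col8a1, Mmp2, Mmp3, Nid1, Pdgfrb, Postn, Tgfb1, Thbs2 and Tnc.

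Genes that work with this set, from lists that hold none of it, showed 0 calls. Of 10 tested genes of collagen modification and turnover, 6 were lower (median -0.06), led by P4ha1. This gene encodes a catalytic subunit of the prolyl hydroxylase that stabilises collagen. Its control arrays read 211, 154 and 195 and its CF arrays 79.2, 35.6 and 39.5 (-1.71 ± 0.53, adjusted p = 0.49). P4ha1 was tested through its controls alone, since every CF array lay under the filter of 140.2. A gene that passes the filter in this way can only be lower in CF. The next in this list, Mmp12, the macrophage elastase, and P4hb, which pairs with P4ha1 and also folds secretory proteins, differed by -0.66 ± 0.34 and 0.16 ± 0.19. The other tested probe set of P4hb differed by -0.11. Of 18 TGF-beta signalling genes, 12 were lower (median -0.28), led by the endothelial co-receptor Eng (-0.76 ± 0.28), the inhibitory Smad6 (-0.43 ± 0.22) and the receptor Acvrl1 (-0.40 ± 0.25).

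Of 20 integrins and other matrix receptors, 13 were lower (median -0.05); those of smallest p were the heparan sulfate proteoglycan Sdc2 (1.28 ± 0.44), the collagen receptor Ddr1 (0.67 ± 0.32) and the focal adhesion adaptor Pxn (-0.44 ± 0.25). Of 22 other matrix components, 11 were lower (median 0.01). Col9a1, a chain of a fibril-associated collagen best known from cartilage, measured 173, 278 and 227 in controls, below every CF array at 521, 755 and 508 (1.40 ± 0.29, adjusted p = 0.20). Lama5, a laminin chain of epithelial basement membranes, measured 253, 122 and 191 in controls and 433, 446 and 616 in CF (1.44 ± 0.34, adjusted p = 0.25), but its other probe set differed by -0.14. Sparcl1, a relative of Sparc, differed by -0.75 ± 0.33. Whether these lists differ from the matrix list was not tested.

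Markers of several other cell types were mostly lower in CF too, while 0 of 7 tested duct markers were lower. Of 10 tested adipocyte markers, 9 were lower in CF, with a median of -0.96; their summed intensity ran from 9079 to 50084 in controls and from 7382 to 14700 in CF, with 0 of 13 under the floor on all arrays. Control replicate 1, labelled entire pancreas, was highest for this sum and for the matrix list, while in replicate 2 the adipocyte sums were 9079 and 7382. These sums lean on single genes. Scd1 made up 31651 of the sum in control replicate 1, and Lep made up 3941 and 3032 of the replicate 2 sums. In the replicate 2 pair 7 of the 10 adipocyte markers were lower, with a median of -0.42, beside the matrix median of -0.28. Without control replicate 1, 34 of 42 matrix genes were lower, with a median of -0.28. Of 10 tested macrophage and granulocyte markers 8 were lower (summed 12182 to 18042 in controls, 11322 to 13827 in CF). C1qb, the brightest of them, was higher on average (0.21 ± 0.15). Cd14 was higher without overlap (0.41 ± 0.20). Of 7 tested lymphocyte markers 7 were lower (5241 to 10705 in controls and 2887 to 6451 in CF, with Cd3d under the floor throughout). The overlap of the lymphocyte sums rested on Ighm: without it they were 4741 to 5350 in controls and 2572 to 3977 in CF.

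The groups' sums did not overlap for endothelial markers (2525 to 3198 in controls, 1786 to 2246 in CF, 6 of 7 lower), mesothelial markers (1534 to 1894 and 1078 to 1347, 3 of 3 lower) and stellate and myofibroblast markers (3365 to 4367 and 2945 to 3204, 5 of 8 lower). Each gap rested on single genes, since the sums overlapped without Eng (endothelial; 1529 to 1954 and 1337 to 1556), without Upk3b (mesothelial; 380 to 643 and 254 to 391) and without Acta2 (stellate; 2776 to 3417 and 2846 to 3128) or Tpm2. Within the last list, Acta2 encodes the actin of myofibroblasts and vessel walls. It measured 1007, 330.4 and 589 in controls and 73.1, 98.7 and 76.7 in CF (-2.82 ± 0.44, adjusted p = 0.082). All CF arrays of Acta2 lay under the filter of 140.2. It was thus tested through its controls alone, and a gene that passes in this way can only be lower in CF. Myl9, a myosin light chain of contractile cells, measured 241, 129 and 99.8 in controls against 399, 250.2 and 209 in CF (0.91 ± 0.45). The actin-binding Tagln and Tpm2 differed by -0.31 ± 0.29 and -0.49 ± 0.31, and S100a4, Des, Gfap and Rgs5 by -0.16 ± 0.78, 0.36 ± 0.58, -0.02 ± 0.21 and 0.17 ± 0.26. The part of these cell types in the matrix differences was not tested. In RNA of a whole gland, fewer cells of a type and less RNA per cell cannot be told apart.

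**Figure D5:**
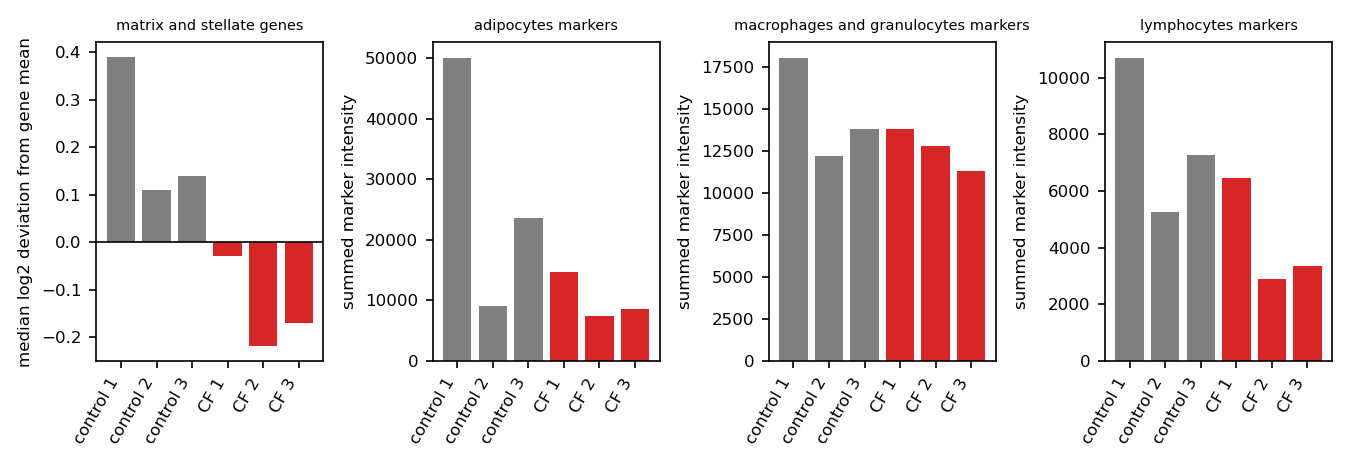
Left, median log2 deviation of the 42 matrix and stellate cell genes from their means on each array; then the summed intensity of adipocyte, macrophage and granulocyte, and lymphocyte markers on the same arrays (controls grey, CF red). The matrix median is 0.39, 0.11 and 0.14 in controls and -0.03, -0.22 and -0.17 in CF, and the adipocyte sum is highest in control replicate 1.

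As checks of the labels, acinar markers were bright on all arrays (5 markers summing to 389952 to 432627 in CF and 412486 to 559516 in controls). All 5 were lower in CF on average and in each pair, with a median of -0.24. The single testable Cftr probe set measured 318, 223 and 339 in controls and 467, 314 and 364 in CF (0.38 ± 0.29, adjusted p = 0.82). Its place relative to the disruption is not given, so it checks nothing. Islet marker sums, 19125 to 77418 in controls and 22306 to 59327 in CF, overlapped. Duct marker sums, 14572 to 19839 in controls and 18603 to 22764 in CF, overlapped too, and 0 of 7 tested duct markers were lower. The duct overlap rested on Muc1: without it the sums were 6707 to 8092 in controls and 9165 to 10870 in CF. With 3 mice per group, precision is limited by the small number of arrays throughout.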

How the data were processed

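Pancreatic RNA of 6 mice was measured on 1 array each. The authors deposited 1 linear intensity per probe set and array; the software behind it was not given in the sources used here. The mean after leaving out 2% of values at each end was 500.27 to 500.3 on every array, so values were taken as scaled.

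Before taking log2, a floor was set at the 20th percentile of all arrays together (47.6); 66 control probe sets were left out, and 7739 probe sets with at least 3 of 6 arrays above the pooled 40th percentile (140.2) were tested. The contrast CF minus control was estimated with limma 3.58.1 under R 4.3.3 (lmFit, eBayes with an intensity trend), with Benjamini-Hochberg adjustment over all of them and a threshold of 0.05. Adjusted p-values and SEs are from this fit unless another setting is named. Each gene is given by its probe set of highest mean, and probe sets with several gene symbols were not named. Folds come from floored log2 values, which understates those of dim genes. Intensities are not compared between genes. The fit was tested on simulated data.

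Groups came from the genotype in the labels, replicate numbers from the title suffix (none, B, P as 1, 2, 3). Deviations from group means correlated at 0.23 to 0.26 between arrays of the same suffix and at -0.18 to -0.05 between others. On that ground arrays of 1 suffix were treated as pairs. The deviations cancel out within a group, so the negative values are tied to the positive ones. Both come from the same arrays as the blocked fit, so they are no independent support for the pairing. Values on each array are given for the 16 members of smallest p, those without overlap and the brightest of each class. In each pathway list the 3 genes of smallest p are named. Members and lists were chosen with earlier results of these data known. Of the 12488 probe sets, 10855 had 1 symbol, 396 several and 1237 none. Alternatives covered scaling, floor, filter, variance model, array weights, block, probe set choice and leaving out each array; marker sums without each gene in turn were added after seeing the data.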

Additional observations from a re-analysis of the deposited data

Results flagged for a closer look

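Col8a1, a short-chain collagen of vessel walls, was left out of the comparison because its probe set was too dim, with only CF replicate 3 above 140.2. On it all 3 CF arrays (119, 104 and 157, mean 127) lay above all 3 controls (102, 55.9 and 43.2, mean 66.9). CF replicate 2 and control replicate 1 were nearly level, and the difference was not tested. Untested probe sets of listed genes also separated the other way. A dim Col3a1 probe set measured 371, 94.5 and 239 in controls and 86.6, 66.3 and 66.2 in CF. An Mmp2 probe set had all CF arrays below all controls too, but every array lay under the floor. How often dim probe sets separate in either direction was not counted.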

How the results depend on the processing

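Of 23 genes given on every array, 21 kept the sign of their difference in all 17 alternatives in which they could be computed, and 0 passed the threshold in any; the count of listed genes past it was 0 in all 16 alternatives with a test. Of the list, 33 to 37 of 42 genes were lower when single arrays were left out, and 33 or 34 with quantile normalization, median centring, another floor, weights or the block. The list median was -0.44 to -0.27 without single arrays, the former without control replicate 3, and -0.31 with the replicate block. Col1a2 turned to -0.15 with the mean of its probe sets and ran from -0.10 to 0.25 without single arrays; Timp1 ran from -0.39 to 0.02. Over all probe sets limma called 8 with arrays centred on their median, 10 with the floor at the 40th percentile, 3 with no intensity trend, 12 with array weights, 10 with the replicate block, 0 with no filter (773 at an unadjusted p under 0.05), and 1 to 11 without single arrays, against 5. The cause was not tested. No scaling moved the median of all genes by over 0.1.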
